A study of Homo sapiens with 6 samples.

Results

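Semaphorins, plexins and neuropilins form one ligand and receptor system, and 30 of its genes were compared between HCT116 cells sorted as CD133+ and as CD133-. The genes were taken by symbol, namely SEMA followed by a digit, PLXNA, PLXNB, PLXNC and PLXND, and NRP1 and NRP2. They were represented by 32 of the 28230 probe sets tested. For each gene the probe set with the highest mean over the 6 arrays was kept, which left 30 of 18404 genes. These were 19 semaphorins, 9 plexins and 2 neuropilins. SEMA4C was not analysed here.

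HCT116 is a human colorectal carcinoma line, and CD133, the product of PROM1, is a surface glycoprotein used to mark candidate tumour-initiating cells. The CD133+ group comprised 3 arrays and the CD133- group 3 arrays, numbered as repetitions 1, 2 and 3 in each. No treatment, genotype change or time point separates the groups, and the labels name neither separate cultures nor separate sorts behind the repetitions. The p-values therefore rest on a spread between samples that could be technical. Signals are the authors' Robust Multichip Average (RMA) values on a log2 scale, and every difference is CD133+ minus CD133-.

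Semaphorins are secreted or membrane-bound guidance cues that share a sema domain. Plexins are their main signalling receptors, with a cytoplasmic domain that acts on small GTPases and thereby on the cytoskeleton and on integrin adhesion. Most class 3 semaphorins, the secreted ones, do not bind a plexin directly and need a neuropilin as the ligand-binding partner. In epithelia and carcinomas the system is known for roles in migration, in cell contacts, and in signalling to endothelium and nerves, and neuropilins also bind VEGF.

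The sorted marker followed the labels, since PROM1 lay between 7.09 and 7.59 on CD133+ arrays and between 3.97 and 5.30 on CD133- arrays. Colorectal epithelial markers averaged 7.58 to 7.63 on CD133+ arrays and 7.49 to 7.69 on CD133- arrays, with KRT8 highest and CDH17 lowest of the 9. Of these, 6 exceeded the median signal of 5.53, whereas CDH17 (3.16), KRT20 (4.09) and VIL1 (4.53) lay below it. Single epithelial markers differed in opposite directions, although 0 of 9 passed in either limma fit. Of all genes, 0.00543% passed with group only and 0.369% with the block. The keratin genes KRT18 and KRT8 had -0.48 and -0.24 on the log2 scale without overlap between fractions, and CDH1, the E-cadherin gene, had 0.40 with the same sign in all 3 repetitions (block adjusted p = 0.0989, 0.336 and 0.334). Of all 9 epithelial markers 2 did not overlap between fractions, against 7.95% of all genes. The part of these marker differences in the results below was not tested. Semaphorins are also made by leukocytes, endothelium and neurons. Leukocyte markers, of which 0 of 5 measured exceeded the median signal of 5.53, averaged 3.41 to 3.52 on CD133+ arrays and 3.38 to 3.72 on CD133- arrays. Endothelial markers averaged 4.31 to 4.41 on CD133+ arrays and 4.27 to 4.41 on CD133- arrays, with 1 of 7 above the median signal (CLDN5, 6.14). CD34, at 0.24, was the 1 endothelial marker with the same sign in all 3 repetitions (block adjusted p = 0.365). Neuronal and glial markers averaged 4.71 to 4.92 on CD133+ arrays and 4.79 to 4.96 on CD133- arrays, with 1 of 4 above the median signal (GFAP, 5.82). Fibroblast markers averaged 4.31 to 4.63 on CD133+ arrays and 4.43 to 4.76 on CD133- arrays, with 1 of 5 above it (COL1A1, 7.47). Each of these marker ranges other than that of PROM1 overlapped between the fractions. In such bulk samples, fewer cells making a transcript and less transcript per cell cannot be told apart.

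A pair of secreted class 3 semaphorins had the largest differences of the system, in opposite directions. SEMA3A, the founding repulsive cue of the vertebrate family, was 2.60-fold higher in CD133+ cells, whereas SEMA3C, a class 3 member with mostly attractive or pro-migratory effects, was 2.29-fold lower. Their neuropilin and A-type plexin receptors showed differences between -0.35 and -0.0043. The other 28 genes of the system had differences no larger in size than 0.35. By size of difference SEMA3A ranked 15 and SEMA3C ranked 24 among the 18404 genes.

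SEMA3A (probe set 8140668) measured 6.68, 6.78 and 6.62 in CD133+ repetitions 1, 2 and 3, against 5.37, 5.62 and 4.96 in the CD133- repetitions. The CD133+ values lay close together, and each was above every CD133- value. The means were 6.69 ± 0.08 in CD133+ and 5.32 ± 0.33 in CD133- cells (SD, n = 3 each), which gives a difference of 1.38 on the log2 scale. Within repetitions the difference was 1.31, 1.17 and 1.66. With group as the only term, the limma adjusted p was 0.142 (SE 0.17), which misses the threshold of 0.05. With repetition as a block SEMA3A rose, with limma adjusted p = 0.0203 (SE 0.11, 95% interval 1.11 to 1.65). The block call ended without repetition 3 (adjusted p = 0.0980) and when the rows left out as controls were included (0.109). With 3 arrays against 3 an exact permutation test (two-sided) can reach no p below 0.1, and SEMA3A had that value.

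SEMA3C (probe set 8140534) measured 6.26, 6.10 and 6.48 in CD133+ cells, against 7.30, 6.92 and 8.21 in CD133- cells. Again the fractions did not overlap, and CD133- repetition 3 stood highest by a wide margin. The means were 6.28 ± 0.19 in CD133+ and 7.47 ± 0.66 in CD133- cells (SD, n = 3 each), which gives a difference of -1.19 on the log2 scale. Within repetitions the difference was -1.03, -0.82 and -1.73. SEMA3C passed in neither fit, with limma adjusted p = 0.897 for group only and 0.0712 with the block (SE 0.17, 95% interval -1.61 to -0.78). Without CD133- repetition 3 the difference was -0.83. The exact permutation p was 0.1.

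The within-array SEMA3A minus SEMA3C value differed between fractions by 2.57, with 2.34, 1.99 and 3.39 in repetitions 1, 2 and 3. These genes were paired because they had the largest opposite differences, so this value is the sum of their sizes and is given as a description, without a test.

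**Figure D1:**
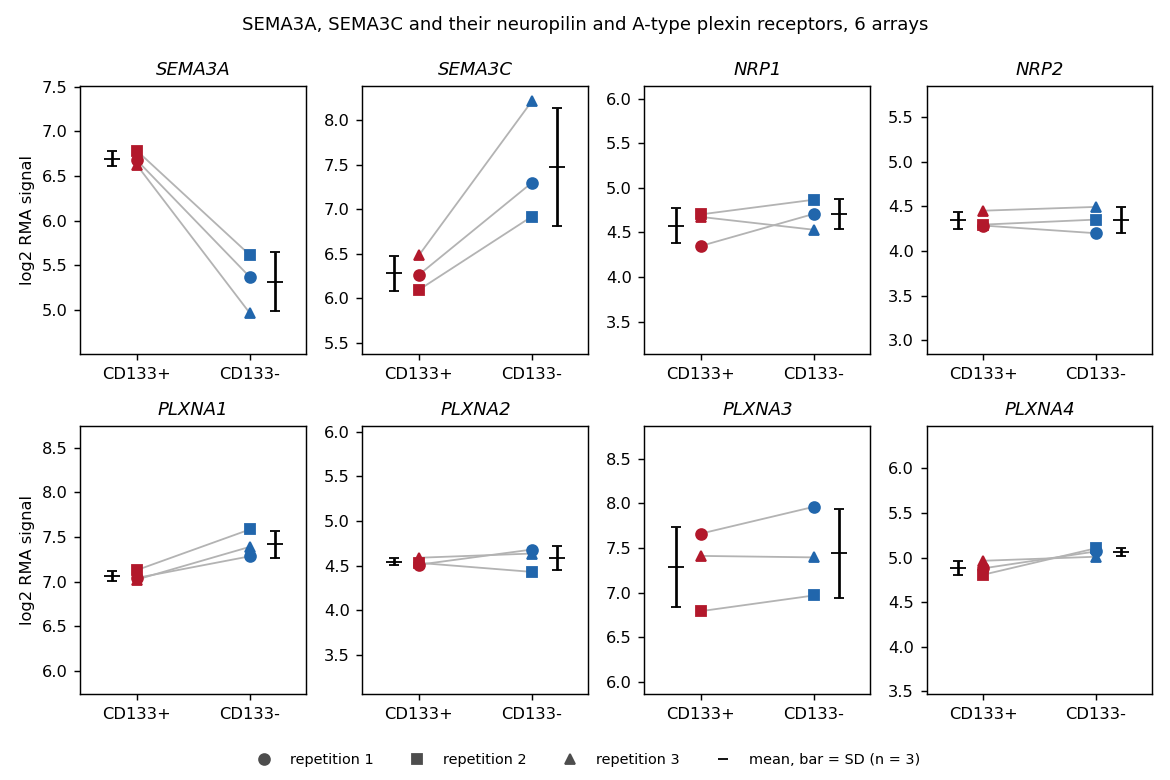
Log2 RMA signal of SEMA3A, SEMA3C, both neuropilins and the A-type plexins on all 6 arrays, with CD133+ arrays at the left and CD133- arrays at the right of each panel. Grey lines join arrays of the same repetition, black marks give the mean and SD of 3 arrays, and all panels span the same log2 range. SEMA3A slopes down to CD133- in every repetition, SEMA3C slopes up, and of the receptors PLXNA1 and PLXNA4 have fractions that do not overlap.

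NRP1, the neuropilin that binds SEMA3A, measured 4.35, 4.70 and 4.67 in CD133+ cells, against 4.71, 4.87 and 4.53 in CD133- cells. These values overlapped, and the difference of -0.13 changed sign in repetition 3 (95% interval with the block -0.40 to 0.15). It came to -0.010 without repetition 1. NRP2, which binds SEMA3F and SEMA3C, measured 4.29, 4.30 and 4.45 in CD133+ cells, against 4.20, 4.35 and 4.50 in CD133- cells. Its difference was -0.0043 (block interval -0.20 to 0.19), and a second, dimmer NRP2 probe set (8047763) had -0.20. Both neuropilins lay below the median signal of 5.53 over all probe sets, and the deposited values carry no detection call.

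The A-type plexins, the signalling subunits of the SEMA3A receptor, had mean differences below 0, but the sign was mixed over repetitions for PLXNA2 and PLXNA3. In either limma fit 0 of 4 passed, against 0.00543% of all genes with group only and 0.369% with the block. PLXNA1 measured 7.04, 7.13 and 7.02 in CD133+ cells, against 7.28, 7.59 and 7.39 in CD133- cells. Every CD133+ value lay below every CD133- value, and the repetitions differed by -0.24, -0.46 and -0.37. The mean difference was -0.35, or 1.28-fold lower (block interval -0.56 to -0.15), with limma adjusted p = 1.00 for group only and 0.206 with the block, so that PLXNA1 did not pass.

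PLXNA4 measured 4.88, 4.81 and 4.96 in CD133+ cells, against 5.07, 5.10 and 5.01 in CD133- cells. These values also did not overlap, but the difference was small at -0.18 (block interval -0.39 to 0.03) and the probe set was dim. PLXNA2 measured 4.51, 4.53 and 4.59 in CD133+ cells, against 4.68, 4.43 and 4.64 in CD133- cells, with a difference of -0.04 that was above 0 in repetition 2 (block interval -0.25 to 0.18). PLXNA3 measured 7.66, 6.79 and 7.41 in CD133+ cells, against 7.96, 6.97 and 7.40 in CD133- cells. In PLXNA3 the repetitions were further apart than the fractions, and the difference of -0.15 was slightly above 0 in repetition 3 (block interval -0.38 to 0.07).

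The SEMA3A difference exceeded that of each receptor on the same arrays. Levels of different probe sets cannot be compared, so changes were set side by side. Of the 6 receptors 4 lay below the median signal, and whether dim probe sets understate a change was not tested. The SEMA3A difference minus the receptor difference was 1.51 for NRP1 and 1.38 for NRP2. For the A-type plexins it was 1.73 for PLXNA1, 1.42 for PLXNA2, 1.53 for PLXNA3 and 1.56 for PLXNA4. The median over these 6 receptors was 1.52. In each case all 3 repetitions were positive and the fractions did not overlap. The lowest single value was 1.07 (PLXNA2, repetition 2) and the highest 2.03 (PLXNA1, repetition 3). The exact permutation p (two-sided) was 0.1 each time, the smallest possible, and the 6 comparisons share the SEMA3A values, whose difference was known when the gene was set against its receptors. As all have the same p, Benjamini-Hochberg adjustment over them leaves 0.1. The SEMA3A fractions did not overlap and receptor differences lay between -0.35 and -0.0043. This outcome was therefore largely set beforehand, and the p-values add no support beyond the SEMA3A difference itself.

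For SEMA3C the same quantity was -1.07 for NRP1, -1.19 for NRP2 and -1.16 for PLXND1, which serves as its plexin in vessels. Against the A-type plexins it was -0.84 for PLXNA1, -1.15 for PLXNA2, -1.04 for PLXNA3 and -1.02 for PLXNA4. It was negative in all 3 repetitions for each of these 7 receptors. Only with PLXNA1 did the fractions overlap. SEMA3C was chosen here for its difference, so these values carry no test.

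**Figure D2:**
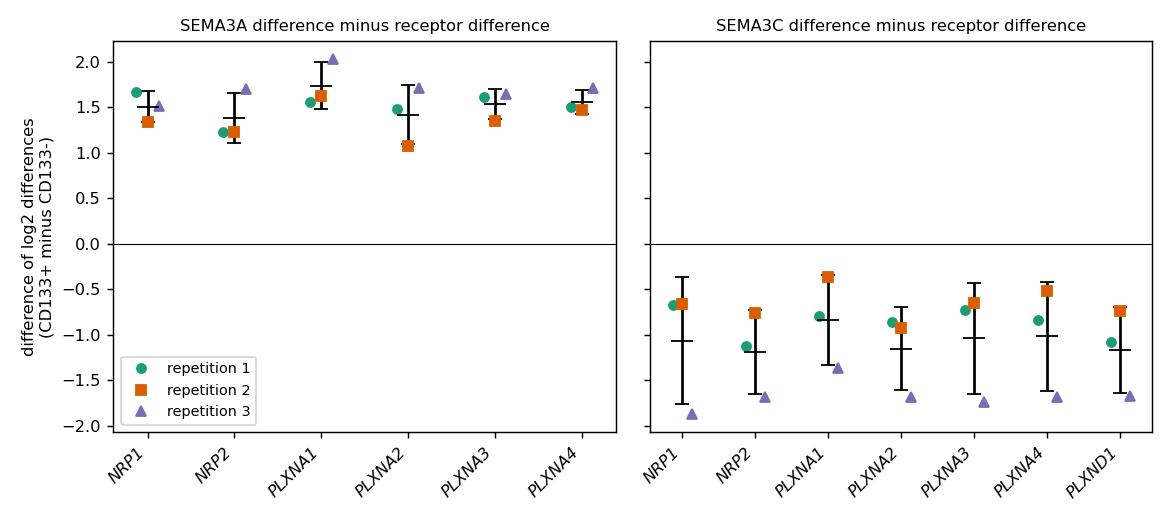
Difference of SEMA3A (left) and of SEMA3C (right) minus the difference of each receptor on the same arrays, as CD133+ minus CD133- on the log2 scale. Coloured points are repetitions, and black marks give the mean and SD of 3 repetitions. All SEMA3A values lie above 1 and all SEMA3C values below 0, with repetition 3 the most extreme for SEMA3C against every receptor.

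The remaining class 3 semaphorins differed by far less. SEMA3E, whose receptor PLXND1 needs no neuropilin, measured 3.71, 3.67 and 3.37 in CD133+ cells, against 3.58, 3.52 and 3.12 in CD133- cells. It was higher in all 3 repetitions by a mean of 0.18, on a dim probe set (block adjusted p = 0.480). SEMA3B, first studied as a candidate lung tumour suppressor, measured 6.45, 5.63 and 6.45 in CD133+ cells, against 6.62, 5.92 and 6.57 in CD133- cells. It was lower in each repetition, with a mean difference of -0.19, while repetition 2 was low in both fractions (block adjusted p = 0.455).

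SEMA3F, the NRP2 ligand encoded near SEMA3B, had -0.10, and SEMA3D had -0.15 on the dimmest of the 30 probe sets, with a mean of 3.03. Both were below 0 in all 3 repetitions. SEMA3G had -0.02, with mixed signs. Of the 7 class 3 genes, 6 kept one sign over all repetitions, 2 upward (SEMA3A and SEMA3E) and 4 downward (SEMA3B, SEMA3C, SEMA3D and SEMA3F). Of all genes 36.1% did so, 17.7% upward and 18.4% downward, and the class count carries no test. The median difference of the class was -0.10.

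Among class 4 semaphorins, which are transmembrane proteins that signal mainly through B-type plexins, SEMA4B had the largest difference. It measured 7.73, 6.67 and 8.09 in CD133+ cells, against 7.43, 6.62 and 7.63 in CD133- cells. The difference was 0.27 and positive in each repetition, but the repetition means spanned 1.21, more than 4 times as much (block interval 0.03 to 0.52, adjusted p = 0.398). SEMA4D, the CD100 ligand of PLXNB1 and CD72, measured 6.54, 6.55 and 6.61 in CD133+ cells, against 6.43, 6.24 and 6.52 in CD133- cells.

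The SEMA4D fractions did not overlap, with a difference of 0.17 (block adjusted p = 0.534). A second, dimmer SEMA4D probe set (8162231) went the other way, at -0.16 and below 0 in all 3 repetitions, so the direction of SEMA4D is not settled by these arrays. SEMA4A, a ligand known from T cell priming, had -0.20 and was lower in each repetition. SEMA4F and SEMA4G had -0.04 and 0.01 with mixed signs.

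Classes 5, 6 and 7 held 0 genes that passed in either limma fit. The shares over all genes were 0.00543% with group only and 0.369% with the block. SEMA5A and SEMA5B, which carry thrombospondin repeats, had 0.01 and -0.13. SEMA6A, a transmembrane ligand of PLXNA2 and PLXNA4, measured 5.76, 5.28 and 6.03 in CD133+ cells, against 5.93, 5.56 and 6.15 in CD133- cells. It was lower in each repetition by a mean of 0.19 in size. SEMA6B, a ligand of PLXNA4, measured 8.15, 7.87 and 8.01 in CD133+ cells, against 8.04, 7.69 and 7.89 in CD133- cells.

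SEMA6B was the only class 6 member above 0 in all repetitions, at 0.14, whereas SEMA6C and SEMA6D had -0.13 and -0.05. SEMA7A, the lipid-anchored ligand of PLXNC1 and of integrin receptors, had -0.02 (block interval -0.21 to 0.18). Its receptor PLXNC1 had -0.09, with 2 repetitions below and 1 above 0.

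Beyond the A type, plexins differed little. PLXNB2, a receptor of class 4 semaphorins in epithelia, measured 9.16, 8.86 and 9.11 in CD133+ cells, against 9.05, 8.81 and 8.88 in CD133- cells. It was the one plexin above 0, by 0.13, and was higher in each repetition (block interval -0.07 to 0.33, adjusted p = 0.627). PLXNB1, the SEMA4D receptor, had -0.02, PLXNB3, the SEMA5A receptor, had -0.09, and PLXND1 had -0.03. Of the 9 plexins 8 were below 0, against 52.1% of all genes, with a median of -0.09. Only 2 of them, PLXNA1 and PLXNA4, were below 0 in all 3 repetitions, against 18.4% of all genes.

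**Figure D3:**
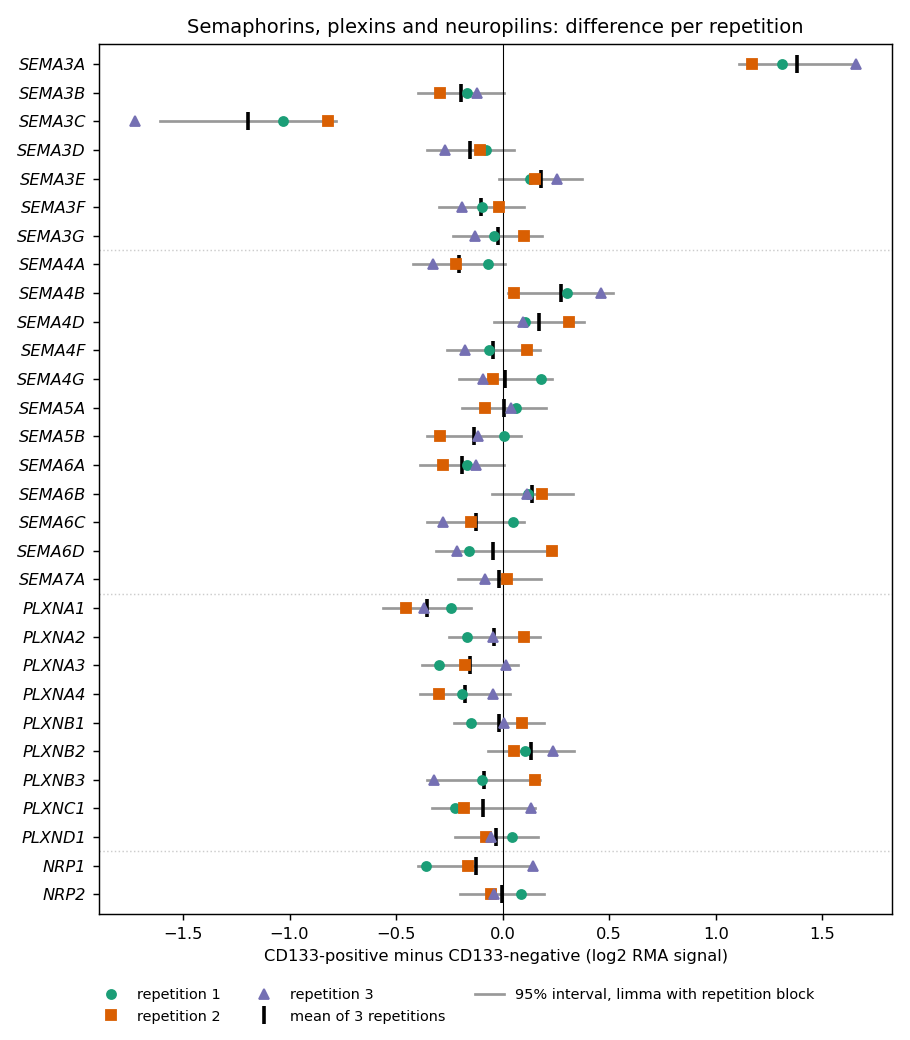
CD133+ minus CD133- difference on the log2 scale for the 30 genes, grouped from top to bottom as class 3 semaphorins, other semaphorins, plexins and neuropilins. Coloured points are repetitions, black bars the mean of 3 repetitions, and grey lines the 95% interval of the limma fit with the repetition block. SEMA3A at 1.38 and SEMA3C at -1.19 stand away from the other genes, which lie between -0.35 and 0.27.

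Over the whole system, 0 of 30 genes passed with group as the only term, against 0.00543% of all genes, and 3 had an unadjusted limma p under 0.05 (3.47% of all genes). With the repetition block 1 of 30, SEMA3A, passed over all probe sets, against 0.369% of genes. At an unadjusted p under 0.05 the block fit had 4 of 30 genes (SEMA3A, SEMA3C, SEMA4B and PLXNA1), close to the 11.6% of all genes. A difference of at least 0.3 in size with one sign in all repetitions was found in 3 of 30 genes (SEMA3A, SEMA3C and PLXNA1), against 5.84% of all genes. The fractions did not overlap for 5 of 30 genes, with SEMA3A and SEMA4D above and SEMA3C, PLXNA1 and PLXNA4 below, against 7.95% of all genes (3.43% above and 4.52% below).

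All 3 repetitions had the same sign for 14 of 30 genes, 6 higher and 8 lower, against 36.1% of all genes (17.7% higher and 18.4% lower). In all 22 of 30 genes were below 0, against 52.1% of genes, with a median of -0.04 beside -0.01 over all genes. These counts are descriptions without a test, and 11 of the 30 probe sets lay below the median signal.

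Most genes of the system varied more between repetitions than between fractions, as did genes in general. Repetitions held over 50% of a gene's variance for 21 of 30 genes, against 67.4% of all genes. The exceptions included SEMA3A, where fractions held 92.5% of the variance, PLXNA1 with 78.1%, PLXNA4 with 73.6% and SEMA3C with 69.1%. At the other end, repetitions held 98.0% of the variance in SEMA4G, 95.9% in SEMA7A, 93.7% in PLXND1 and 93.5% in PLXNA3.

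Repetition 2 was the lowest of the 3 for 22 of 30 genes, against 42.1% of all genes. SEMA4G measured 6.85, 5.84 and 6.72 in CD133+ cells, against 6.67, 5.88 and 6.81 in CD133- cells, so that repetition 2 was lower in both fractions alike. SEMA4B and PLXNA3, whose values are given above, dipped in repetition 2 in the same way, with repetition means of 7.58, 6.65 and 7.86 for SEMA4B and of 7.81, 6.88 and 7.40 for PLXNA3. The labels do not say what separates the repetitions, and what lies behind their differences was not tested.

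**Figure D4:**
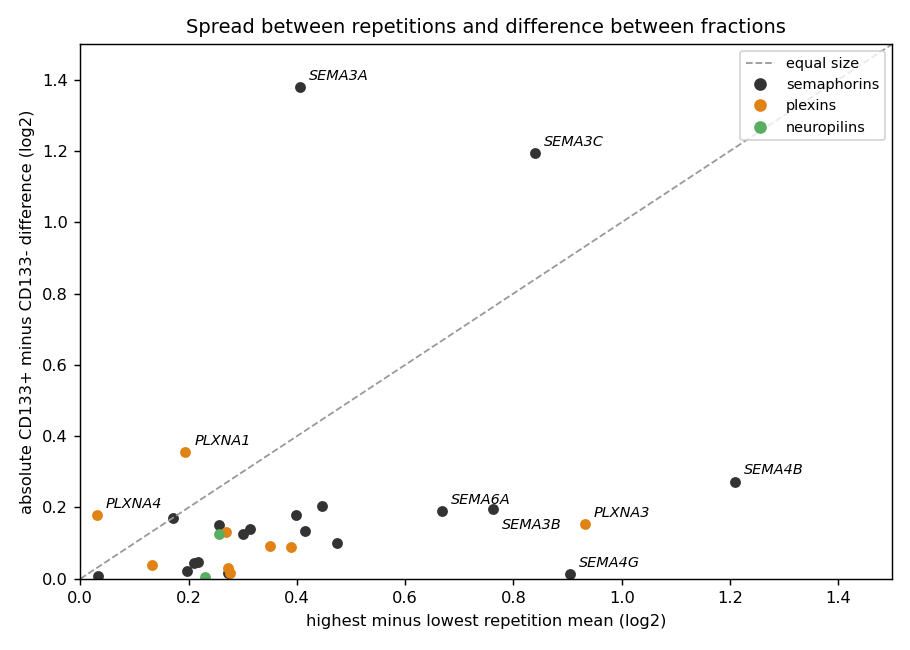
Each point is 1 of the 30 genes, with the highest minus the lowest repetition mean on the horizontal axis and the absolute CD133+ minus CD133- difference on the vertical axis, both on the log2 scale. SEMA3A, SEMA3C, PLXNA1 and PLXNA4 lie above the line of equal size, whereas SEMA4B, PLXNA3 and SEMA4G lie far to the right of it, with repetition ranges of 1.21, 0.93 and 0.90.

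The partners of semaphorin signalling were taken from lists chosen for their role, of which 48 of 52 genes were measured. With group as the only term 0 of 48 passed (3 at an unadjusted limma p under 0.05, against 3.47% of all genes), and with the repetition block 1 rose, DPYSL3, and 0 fell, against 0.196% and 0.174% of all genes. At an unadjusted block p under 0.05 there were 10 of 48, 3 higher and 7 lower, against 11.6% of all genes. The median difference of the 48 was -0.03, with 19 above and 29 below 0. The fractions did not overlap for 6 of 48, 3 above and 3 below, against 7.95% of all genes (3.43% above and 4.52% below).

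Cytoplasmic effectors held that gene, and 7 of their 27 measured genes had an unadjusted block p under 0.05, against 11.6% of all genes. DPYSL3 encodes CRMP4, one of the collapsin response mediator proteins that link SEMA3A receptors to microtubules and actin. It measured 6.79, 6.95 and 6.57 in CD133+ cells, against 6.13, 6.20 and 5.73 in CD133- cells. The fractions did not overlap. The difference was 0.75, or 1.68-fold, with limma adjusted p = 0.676 for group only and 0.0365 with the block (SE 0.08). The block call ended with each repetition left out in turn (adjusted p = 0.0820, 0.126 and 0.215 without repetitions 1, 2 and 3), and when the rows left out as controls were included (0.157).

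The rest of the CRMP family is given whole, a choice made after its values were seen. DPYSL2, which encodes CRMP2, the mediator first found through SEMA3A-induced growth cone collapse, measured 7.92, 7.83 and 8.16 in CD133+ cells, against 8.44, 8.31 and 8.58 in CD133- cells. These fractions did not overlap either, in the opposite direction to DPYSL3, with a difference of -0.47 that missed the threshold (block adjusted p = 0.0989). DPYSL4 had -0.29 and was lower in each repetition (block adjusted p = 0.308), whereas CRMP1 and DPYSL5 had 0.05 and -0.03 with mixed signs.

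The other effectors with an unadjusted block p under 0.05 were the MICAL genes and FARP1, named after their values were seen, and 0 of these 4 passed. MICAL2, of the MICAL family of actin-oxidising enzymes, measured 6.12, 6.67 and 6.19 in CD133+ cells, against 6.54, 7.25 and 6.66 in CD133- cells. It was lower in each repetition, with a difference of -0.49, though the fractions overlapped (block adjusted p = 0.0989). FARP1, of a family of guanine nucleotide exchange factors that act with A-type plexins, measured 6.91, 6.77 and 7.13 in CD133+ cells, against 7.26, 7.23 and 7.53 in CD133- cells. Its fractions did not overlap, with a difference of -0.40 (block adjusted p = 0.146). MICAL1 had -0.24 and MICAL3 had 0.24, each with one sign in all repetitions and overlapping fractions.

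**Figure D5:**
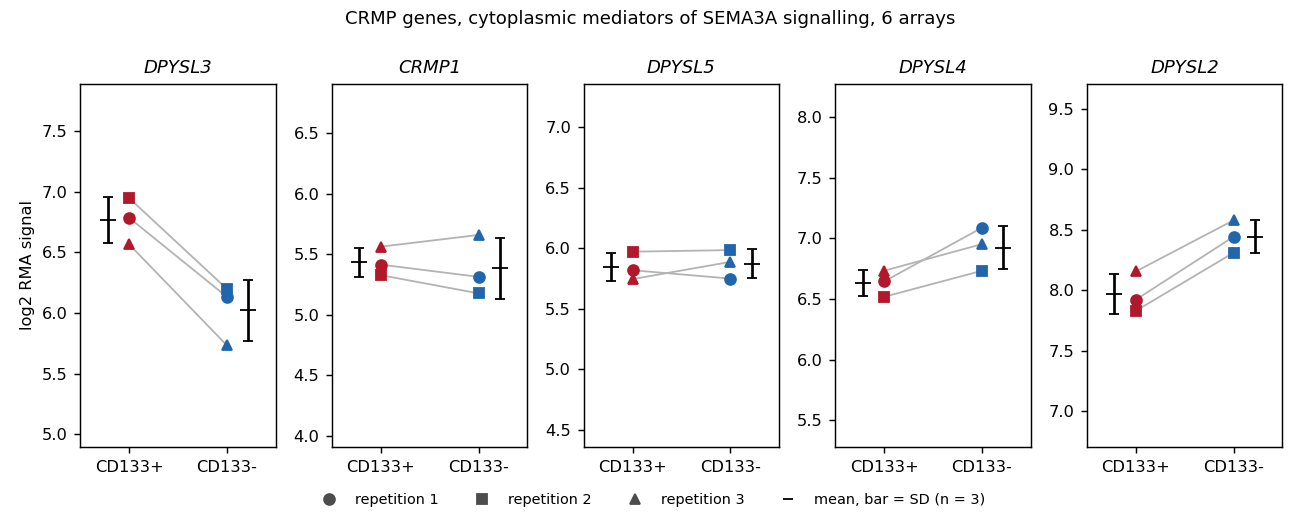
Log2 RMA signal of the CRMP genes on the 6 arrays, with CD133+ arrays at the left and CD133- arrays at the right of each panel, lines joining arrays of the same repetition and black marks for the mean and SD of 3 arrays. DPYSL3 slopes down to CD133- in each repetition (difference 0.75), DPYSL4 and DPYSL2 slope up (differences -0.29 and -0.47), and the lines of CRMP1 and DPYSL5 run in mixed directions.

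Co-receptors and alternative receptors had 0 of 9 measured genes that passed in either limma fit, against 0.369% of all genes with the block. At an unadjusted p under 0.05 with the block there were 2, against 11.6% of all genes. L1CAM, the adhesion molecule that joins NRP1 in the SEMA3A receptor, measured 5.69, 5.57 and 6.48 in CD133+ cells, against 6.60, 6.09 and 6.64 in CD133- cells. It was lower in each repetition, with a difference of -0.53, though the fractions overlapped (block adjusted p = 0.256). MST1R, the RON receptor tyrosine kinase that associates with B-type plexins, had 0.22 (block adjusted p = 0.370).

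VEGF ligands and receptors, which share the neuropilins, had 0 of 7 genes that passed, against 0.369% of all genes with the block. At an unadjusted limma p under 0.05 with the block there was 1, against 11.6% of all genes. VEGFA measured 8.20, 7.43 and 8.11 in CD133+ cells, against 8.26, 7.86 and 8.47 in CD133- cells, a difference of -0.28 (block adjusted p = 0.369) that came to -0.041 without CD133+ repetition 2. FLT1 had -0.17 on a dim probe set. Proteases of the families that cleave semaphorins had 0 of 5 that passed in either fit and 0 at an unadjusted p under 0.05. The shares over all genes were 0.369% and 11.6% with the block. MMP14 had -0.11 and PCSK6 had -0.09.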

How the data were processed

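RNA of HCT116 cells sorted by CD133 was measured on 6 arrays, 3 per fraction. The deposited values are log2 signals made by the authors with RMA, per the labels' design text and the submitters' processing notes. No version of it was given in the sources used here. Values ran from 1.09 to 13.7, which gave the log2 scale. The design text names a U133 array, but the row identifiers are those of a Human Gene ST array, whose platform annotation was used.

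Of 32321 rows, a leading block of 4091 without genes was left out, and 28230 probe sets were tested, 19158 with 1 symbol, 1388 with several and 7684 with none. Array medians were 5.44 to 5.60, and 0 columns were unused. The number of arrays limits the precision. Differences were fitted with limma 3.58.1 in R 4.3.3 with group alone in the model. Benjamini-Hochberg adjustment ran over all 28230 probe sets (threshold 0.05). The fit was run on simulated data, where its mean estimates had to stay near the planted differences. That check bears on the estimates and not on the calls made here.

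The repetition numbers pair the arrays by the data, since same-numbered arrays deviated together from their group means (correlation 0.447 to 0.616, above the bound of 0.1 in all 3 pairs). Values of the fit with repetition as a block stand beside results it changed. Intervals of 95% come from that fit.

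Every gene of the system was named. Values by array were given for SEMA3A, its receptors, genes that passed in either fit, and genes of one sign in all 3 repetitions and a mean size of at least 0.3, with further genes added after values were seen. From partner lists the genes that passed were named, or the 2 with the smallest block p where none did. Genes, lists and tests were chosen with earlier results of these data known. Alternatives were other scalings, a filter on dim probe sets, array weights, no row left out, the mean of probe sets, and arrays or repetitions left out.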

Additional observations from a re-analysis of the deposited data

How the results depend on the processing

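SEMA3A stayed higher in CD133+ cells in all 18 alternatives run, at 1.20 to 1.53 with single arrays or repetitions left out, and passed in 5 of them, with limma adjusted p between 0.0187 and 0.661. It passed with the replicate block (difference 1.38, 84 probe sets past the threshold in all), with array weights (1.34, adjusted p = 0.0187, 33 probe sets), and with the block without repetition 1 (1.41) or 2 (1.48). It also passed with the block after repeated quantile normalization (1.37, 67 probe sets), an alternative added after seeing the data. Each of these settings called 1 gene of the system, and the others called 0, against 0 with group as the only term. Partner genes had 1 call with the block, with or without repeated quantile normalization, and 0 otherwise. The block changed no call other than SEMA3A and DPYSL3 among the genes of the system and the partners named. The count of all probe sets past the threshold, 1 with group only, was 0 after repeated quantile normalization, after centring, and with no row left out as a control, with or without the block (the latter setting added after seeing the data). It was 0 to 43 with arrays or repetitions left out. The median SEMA3A minus receptor difference was 1.39 to 1.66 over its alternatives. Differences near 0 changed sign. NRP2 had 0.014 after repeated quantile normalization with or without the block, 6.48e-05 after centring and 0.099 with array weights. SEMA4G had -0.0071 after repeated quantile normalization with or without the block and -0.087 with array weights, where SEMA7A had 0.093 and DPYSL5 had 0.073. With arrays or repetitions left out, the difference was -0.42 to 0.081 for SEMA3B, -0.26 to 0.023 for SEMA3F, -0.11 to 0.031 for SEMA3G, -0.030 to 0.68 for SEMA4B, -0.13 to 0.024 for SEMA4F, -0.27 to 0.33 for SEMA4G, -0.020 to 0.052 for SEMA5A and -0.24 to 0.012 for SEMA5B. It was -0.36 to 0.013 for SEMA6A, -0.19 to 0.053 for SEMA6D, -0.11 to 0.061 for SEMA7A, -0.11 to 0.027 for PLXNA2, -0.39 to 0.11 for PLXNA3, -0.13 to 0.066 for PLXNB1, -0.27 to 0.047 for PLXNB3, -0.24 to 0.011 for PLXNC1, -0.098 to 0.064 for PLXND1 and -0.079 to 0.069 for NRP2. For partners it was -0.29 to 0.043 for MMP14, -0.052 to 0.19 for CRMP1 and -0.092 to 0.028 for DPYSL5. For neighbours on chromosome 7 it was -0.036 to 0.12 for CD36, -0.12 to 0.051 for HGF and -0.39 to 0.12 for ELAPOR2, and array weights gave -0.056 for CD36 and 0.0077 for HGF. Differences that kept their sign could still move by more than 1.5 times, as in NRP1 (-0.26 to -0.010), VEGFA (-0.45 to -0.041), SEMA3E (0.034 to 0.28), SEMA4A (-0.33 to -0.074), CDH1 (0.049 to 0.60) and MICAL2 (-0.66 to -0.28). Leaving out 1 array unbalances the repetitions, and beyond that the cause was not tested. Of the 30 genes, 12 kept their direction in all alternatives run that held their probe set. Genes below the median signal could not be given a value with the filter on dim probe sets.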

Other observations

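SEMA3C, SEMA3E, SEMA3A and SEMA3D follow each other in that order on human chromosome 7 in the RefSeq annotation, with HGF, CACNA2D1 and PCLO between SEMA3C and SEMA3E. This neighbourhood was looked at after the values of SEMA3A and SEMA3C were seen. HGF, the MET ligand gene, had a CD133+ minus CD133- difference of -0.05 with mixed signs. CACNA2D1, a calcium channel subunit gene, had 0.18. Its fractions did not overlap, which held for 7.95% of all genes. PCLO, a presynaptic scaffold gene, had -0.16. SEMA3E at 0.18 and SEMA3D at -0.15 lie on either side of SEMA3A. CD36, next to SEMA3C, had 0.04, and GRM3, next to SEMA3D, had -0.23. ELAPOR2, the next gene after GRM3, had -0.11 with mixed signs at a mean signal of 7.94 (block adjusted p = 0.734). Apart from SEMA3A, 0 of these genes passed in the limma fit with the repetition block, against 0.369% of all genes. In that fit adjusted p values of the 7 other than SEMA3A, SEMA3C and ELAPOR2 were 0.449 to 0.909. Those 7 had dim probe sets, with means of 2.34 to 3.96, below the median signal of 5.53.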
